A study of Mus musculus with 16 samples.

Results

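Chemokines, chemokine receptors and interleukins were followed as one family of genes in the lungs of female A/J mice given the tobacco carcinogen NNK, a diet with selenocystine, or both. The members are the non-control probes whose name on the array begins with Ccl, Cxcl, Ccr or Cxcr and a number, or is Il with a number and at most a letter and digits after it. A probe was kept where its red (Cy5) signal was well above background on all 4 arrays of at least 1 group, and the brightest kept probe stood for its gene. The pattern took 92 gene names (116 probes), of which 66 genes (76 probes) passed, out of 21261 genes that passed the same filter. The 66 were 17 of 20 CC ligands, 9 of 13 CXC ligands, 12 of 13 chemokine receptors, 21 of 37 interleukins, 6 of 8 interleukin receptors and Il4i1, which is an amino acid oxidase and no interleukin. The names used here are current where a gene table gave one: Pf4 stands on the array as Cxcl4, Ppbp as Cxcl7, Il25 as Il17e, Il17ra as Il17r and Ccl27a as Ccl27.

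Chemokines are small secreted proteins that bind G protein-coupled receptors on leukocytes and guide them along a gradient into and through tissue. Interleukins are secreted signals between leukocytes, epithelium and stroma that act through JAK-STAT receptors, or, in the IL-1 and IL-17 families, through adaptors that lead to NF-kappaB. In the lung, some chemokines are made at rest and place lymphocytes and dendritic cells in lymphoid tissue (Ccl19, Ccl21, Cxcl12, Cxcl13), and others are induced by injury or infection and bring in neutrophils, monocytes and T cells.

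The 16 mice formed 4 groups of 4, which the labels call biological replicates. The Untreated mice ate the AIN-76 basal diet, with 0.35 ppm selenium, which every group shared. The NNK mice had 1 intraperitoneal injection of NNK, 0.2 mL of a saline solution at 10 uM, and were killed 13 days later. The SECY mice ate selenocystine at 15 ppm for 10 days. The NNK+SECY mice had the injection and, from 3 days after it, the same diet for 10 days. No saline injection is named for the mice without NNK. Each array carried 1 lung RNA in Cy5 and, in green (Cy3), an equal mix of the 4 Untreated RNAs, with no dye swap, so a value is log2(Cy5/Cy3) and the Untreated group lies near 0 by construction. Whole lung was measured, in which fewer cells of a type and less RNA per cell cannot be told apart.

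The layout limits what the groups can show. Untreated and NNK arrays lay on slides 1 to 4 and SECY and NNK+SECY arrays on slides 5 to 8, so slide set and diet cannot be told apart. Both NNK-injected groups were scanned on day 1 and the other groups on day 2, so scan day and injection cannot be told apart in the NNK comparisons. Between 66.3% and 72.6% of spots were well above background on the arrays of slides 1 to 4, against 75.0% to 79.3% on slides 5 to 8. Median signal was 71.2 to 105 units in Cy5 and 67.5 to 93.4 in Cy3. The lowest correlation between arrays over the genes tested was -0.375 (Untreated 1 with SECY 3), the only 1 of the pairs below -0.3. Both arrays are labelled with the same dye orientation, and the direction was kept as labelled.

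Members stood nearest to background on slides 1 to 4. All 4 arrays of a group were well above background for 53 of the 92 names in Untreated lung, 52 in NNK, 60 in SECY and 64 in NNK+SECY. Over all probes the shares were 65.9%, 63.4%, 71.3% and 73.5%, in the same order. Of the 66 members, 49 passed in every group. A further 13 passed through the selenocystine-fed groups only: Ccl4, Ccr1, Ccr8, Il13, Il1f5, Il1f6, Il1f9, Il2, Il23r, Il24, Il25, Il31 and Il4. The 26 names that passed in no group include the neutrophil chemoattractants Cxcl2 and Cxcl5, the interferon-induced Cxcl9 and Cxcl11, the pyrogenic cytokines Il6 and Il1a, and Il17a, Il5, Il9, Il21, Il22 and Il3. A name that did not pass was not well above background, which sets no level for its transcript.

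Across the family, 1 gene passed the test. Ccl19 was lower in NNK+SECY lung than in Untreated lung and than in NNK lung, and no member passed with NNK alone, with selenocystine alone or between SECY and NNK+SECY lung. The test was limma's moderated test over all 16 arrays with Benjamini-Hochberg adjustment over all genes tested and a threshold of 0.05. With NNK alone 0 of 66 members passed, where 0.32% of all genes did. With selenocystine alone 0 of 65 passed, against 0.278% of all genes. With both treatments against Untreated 1 of 66 passed, against 1.59% of all genes. In injected mice, diet against no diet gave 1 of 66, against 1.75% of all genes. In fed mice, injection against none gave 0 of 65, against 0.00941% of all genes. The interaction, that is, how far the difference between injected and uninjected mice depended on the diet, gave 0 of 65, against 0.00471%. In each comparison the members' count is close to the share of all genes.

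The comparisons share their groups, and each gave its own distribution of differences. With NNK alone the members' log2 differences ran from -0.28 to 0.21 with a median of 0.008, beside 0.005 over all genes. An unadjusted p under 0.05 was met by 3 members (4.55%), against 5.04% of all genes. With selenocystine alone they ran from -0.71 to 0.24 with a median of -0.039, beside -0.003, and 7 (10.8%) met it, against 8.11%. More members lay below 0 than above it in that comparison, 39 of 65 (60.0%), against 51.9% of all genes. Both treatments against Untreated gave a range of -0.62 to 0.24 and a median of -0.019, beside 0 over all genes. There 44 of 66 lay below 0 (66.7%), against 49.8%, and 9 (13.6%) met the unadjusted p, against 9.22%. Diet in injected mice gave a range of -0.73 to 0.29 and a median of -0.024, beside -0.002. Again 44 of 66 lay below 0, against 51.1%, and 8 (12.1%) met the unadjusted p, against 9.89%. Injection in fed mice gave a median of -0.003, beside 0.005, and 2 (3.08%) met it, against 6.14%. The interaction's median was 0.003, beside 0.001, and 1 member met it (1.54%), against 4.6%. The median SD of a single gene within a group was 0.109 for members and 0.095 for all genes.

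**Figure D1:**
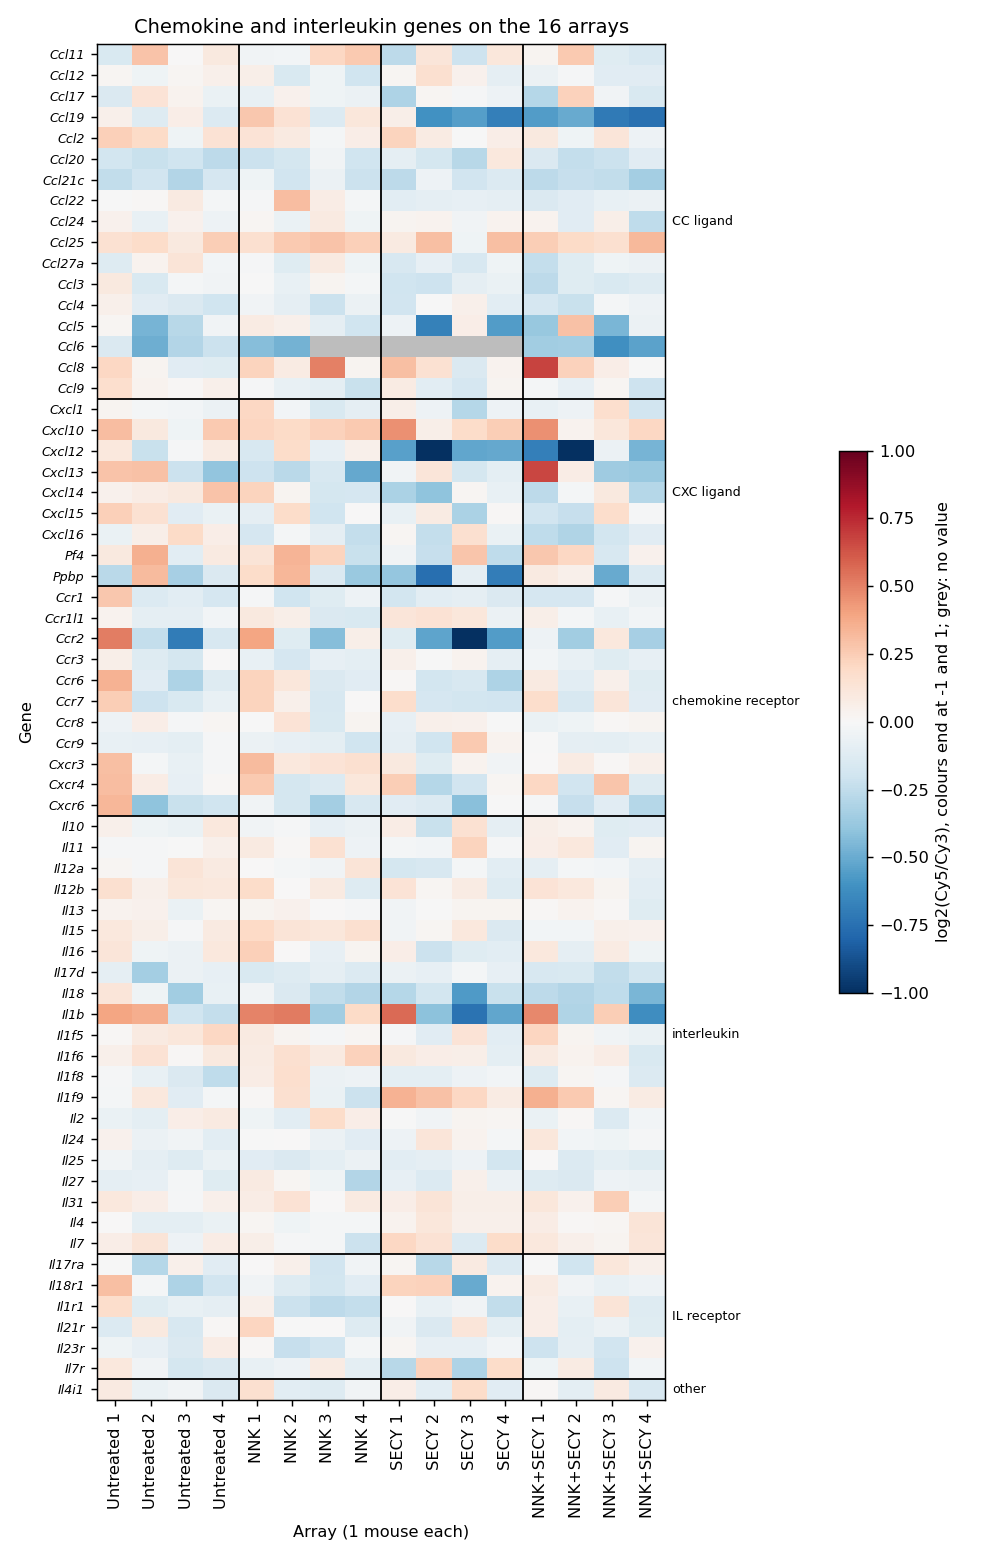
Log2(Cy5/Cy3) of 65 members (rows, grouped by role) on the 16 arrays (columns, grouped by treatment), with the colour scale ending at -1 and 1 and grey for spots left out as outliers. Ccl19 and Cxcl12 are the rows that are lower on most arrays of both selenocystine-fed groups, and Il1b and Ccr2 are rows that vary within each group.

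Some members had all 4 arrays of a group apart from all 4 of another. In NNK against Untreated lung it was met by 2 members, where 3.8% of all genes met it: Ccl9 was lower and Il15 higher. In SECY against Untreated lung it was met by 5, against 3.96%: Cxcl12, Cxcl14, Ccl22 and Il12a were lower and Il4, near background, higher. Between NNK+SECY and Untreated lung it was met by 5, against 6.81%: Ccl19, Cxcl16, Ccl22 and Il12a were lower and Il4, near background, higher. In NNK+SECY against NNK lung 6 members met it, all lower, against 8.47%: Ccl19, Ccl22, Ccl3, Ccl21c, Cxcr3 and Il15. Between NNK+SECY and SECY lung 1 met it, against 2.83%: Il17d was lower. Il4 passed the filter only through the fed groups. Its separation lies among readings near background, and no difference is read from it. On its second probe Il15 went the other way, at -0.11 with NNK and 0.07 in NNK+SECY against NNK lung.

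The results turn on Ccl19, the ligand of Ccr7 that holds T cells and mature dendritic cells in lymphoid tissue, and on Cxcl12, the stromal ligand of Cxcr4 and Ackr3. Their sequences before the annotated start are shown because these 2 members had the lowest means in NNK+SECY lung. They are the 250 bases before the start in RefSeq's annotation of GRCm38.p6, written 5′ to 3′ along the gene: chr4:42756366-42756615 on the minus strand for Ccl19 and chr6:117168285-117168534 on the plus strand for Cxcl12. Capitals mark the GC box (GGGCGG on either strand). The reference is the C57BL/6J genome, and the A/J sequence was not used here.
Ccl19: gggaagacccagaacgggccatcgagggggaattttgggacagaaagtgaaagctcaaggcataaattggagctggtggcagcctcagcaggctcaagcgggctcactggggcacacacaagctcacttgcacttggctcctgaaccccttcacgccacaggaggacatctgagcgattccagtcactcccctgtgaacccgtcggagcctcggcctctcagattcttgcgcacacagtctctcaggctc
Cxcl12: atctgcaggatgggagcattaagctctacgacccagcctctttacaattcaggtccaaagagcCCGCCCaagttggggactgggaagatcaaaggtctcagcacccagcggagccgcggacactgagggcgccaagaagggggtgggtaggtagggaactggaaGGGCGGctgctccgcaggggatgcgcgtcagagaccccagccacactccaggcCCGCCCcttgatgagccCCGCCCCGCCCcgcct
The Ccl19 stretch is 58.4% G and C and the Cxcl12 stretch 64.4%. A set of 4 letter patterns was searched on both strands over the 250 bases before each start: the NF-kappaB consensus, the core of the NRF2 element (TGACNNNGC), the STAT site (TTCNNNGAA) and the GC box, which was added after the sequences were read. The Ccl19 stretch held none of the 4. The Cxcl12 stretch held 5 GC box matches, of which 2 overlap, and none of the other patterns. Over 32851 RefSeq promoters of this length the NF-kappaB consensus was found in 7.25%, the NRF2 core in 10.2%, the STAT site in 7.02% and the GC box in 32.7%. Promoter entries existed for 49 of the 66 members, 62 entries in all, and 9, 5, 8 and 10 of them held each pattern in the same order. A match describes letters and shows no binding.

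Ccl19 was read by a pair of probes that did not behave alike. On the brighter probe the Untreated arrays read 0.05, -0.13, 0.07 and -0.14, and the NNK arrays 0.27, 0.14, -0.14 and 0.11. The SECY arrays read 0.06, -0.61, -0.55 and -0.68, and the NNK+SECY arrays -0.56, -0.50, -0.71 and -0.75. All NNK+SECY arrays and 3 of 4 SECY arrays lay below every array of the unfed groups, and SECY 1 lay among them. Group means were -0.04 ± 0.11 (SD, n = 4) in Untreated, 0.10 ± 0.17 in NNK, -0.44 ± 0.34 in SECY and -0.63 ± 0.12 in NNK+SECY. Ccl19 fell by 0.73 (SE 0.13, 95% interval -1 to -0.45) in NNK+SECY against NNK lung, to 0.604 times the level, with a limma adjusted p of 0.00461. It fell by 0.59 (interval -0.87 to -0.32) against Untreated lung, to 0.664 times, with a limma adjusted p of 0.0296. With selenocystine alone the difference was -0.40 (interval -0.68 to -0.13) and did not pass (limma adjusted p = 0.275). Without SECY 1 it was -0.57 and passed (limma adjusted p = 0.0028). NNK alone gave 0.14 and NNK under selenocystine -0.19, and neither passed (limma adjusted p = 1 and 0.885).

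The fall of Ccl19 lay partly in the green channel, which holds the same RNA mix on every array. The Cy3 signal of the brighter probe, as log2 intensity, was between 7.88 and 8.28 on the NNK arrays and between 7.79 and 8.38 on the Untreated arrays. It was between 8.39 and 8.52 on the SECY arrays and between 8.43 and 8.65 on the NNK+SECY arrays. The reference was thus brighter at this probe on every array of slides 5 to 8 than on any of slides 1 to 4. From NNK to NNK+SECY, Cy5 moved by -0.40 and Cy3 by 0.33. From Untreated to NNK+SECY, Cy5 moved by -0.24 and Cy3 by 0.35. On Cy5 alone the difference did not pass in either comparison (-0.40, limma adjusted p = 0.144, and -0.24, limma adjusted p = 0.316). The second probe, 80 bases away by the array's annotation, gave -0.09 against Untreated, 0.01 against NNK and 0.02 for selenocystine alone. Its NNK+SECY arrays read -0.03, -0.06, -0.23 and -0.21, and its NNK arrays -0.13, -0.14, -0.02 and -0.26. These overlap. The mouse genome holds near-identical Ccl19 copies, so which copy a probe reads is uncertain. The call against Untreated lung was lost without any 1 of the 4 Untreated arrays (limma adjusted p from 0.0524 to 0.102) and without NNK+SECY 1, 3 or 4 (0.0636, 0.0803 and 0.104). The call against NNK lung held without any 1 array (limma adjusted p at most 0.0241). With the scanner's processed signals in place of normexp and loess, the difference from Untreated was -0.70 and did not pass (limma adjusted p = 0.0639), while that from NNK was -0.88 and passed (limma adjusted p = 0.0115). Averaged over both probes the differences were -0.34 and -0.36 and passed (limma adjusted p = 0.0147 and 0.00668).

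**Figure D2:**
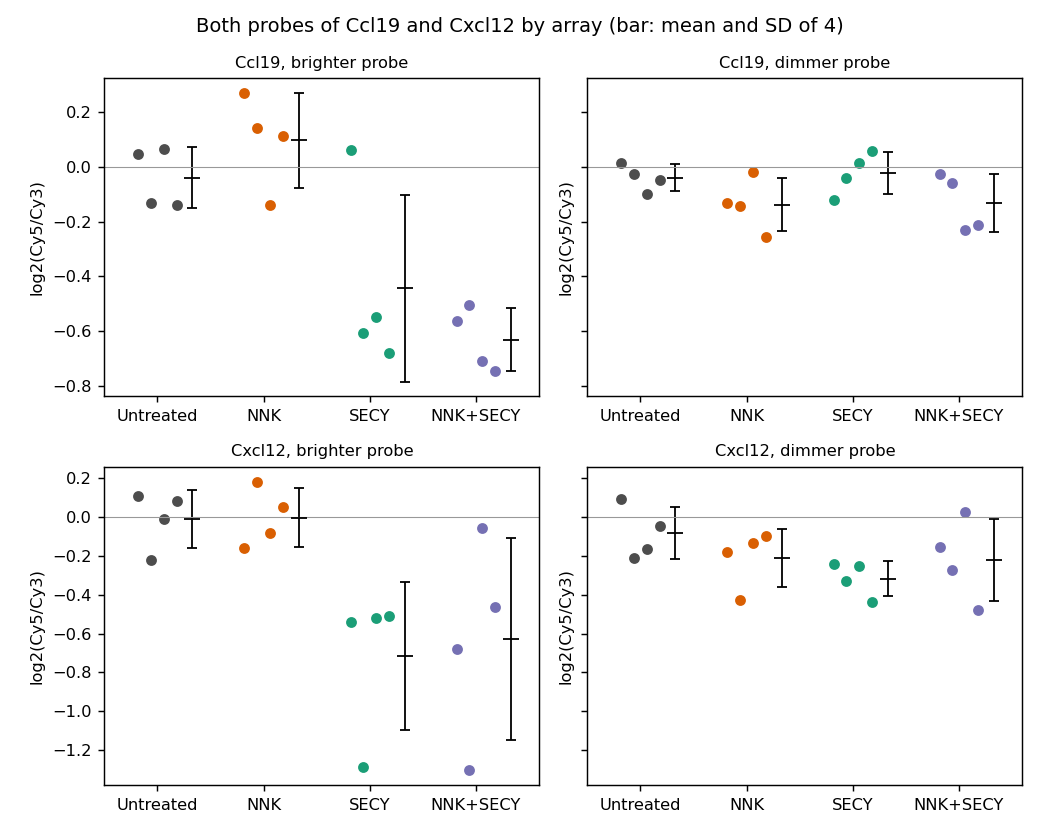
Log2(Cy5/Cy3) of both probes of Ccl19 and of Cxcl12 (brighter on the left) on each of the 4 arrays of the 4 groups, with bars for the mean and SD. The brighter probes are low on most SECY and NNK+SECY arrays, apart from SECY 1 for Ccl19 and NNK+SECY 3 for Cxcl12, and the dimmer Ccl19 probe overlaps in all 4 groups.

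**Figure D3:**
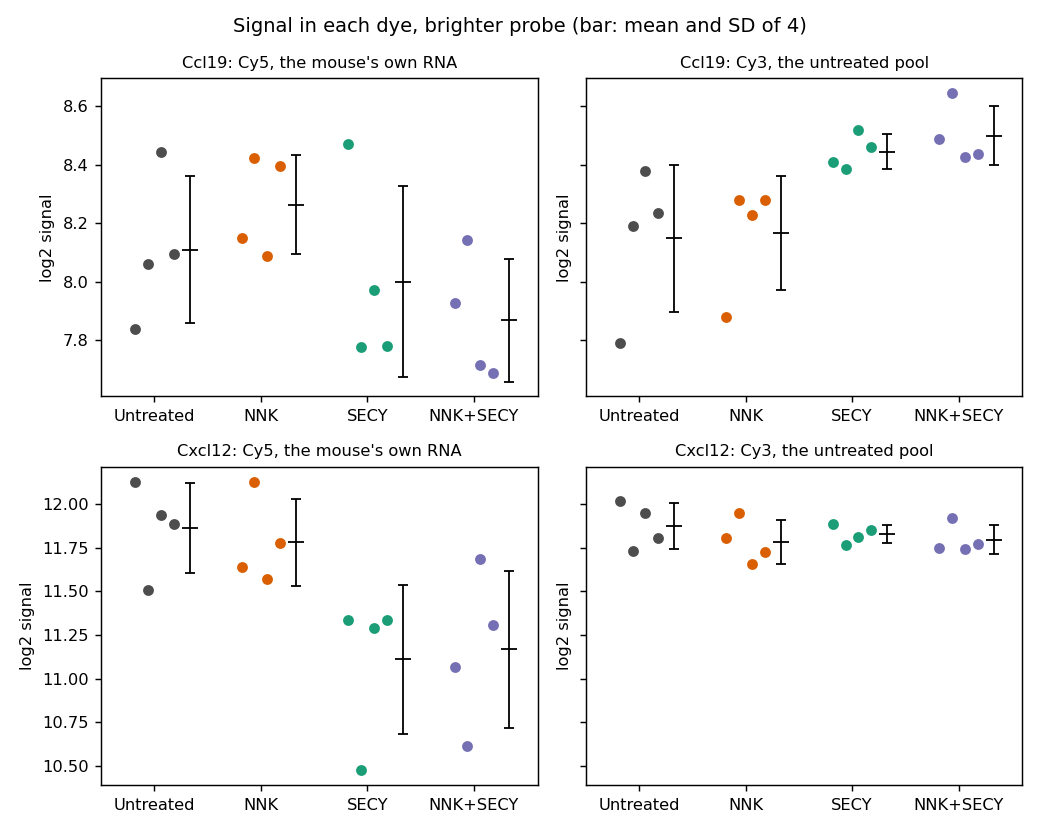
Log2 intensity of the brighter Ccl19 and Cxcl12 probes in Cy5 (the lung sample) and Cy3 (the untreated mix) on each array of the 4 groups. The Cy3 signal of Ccl19 is higher on every SECY and NNK+SECY array than on any other, while that of Cxcl12 overlaps between all groups.

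Cxcl12 gave the largest difference of any member with selenocystine alone, and did not pass. On its brighter probe the Untreated arrays read 0.11, -0.22, -0.01 and 0.08, and the NNK arrays -0.16, 0.18, -0.08 and 0.05. The SECY arrays read -0.54, -1.29, -0.52 and -0.51, and the NNK+SECY arrays -0.68, -1.31, -0.06 and -0.47. All SECY arrays lay below all Untreated arrays, while NNK+SECY 3 lay within the range of both unfed groups. The difference was -0.71 (SE 0.21, interval -1.15 to -0.26) in SECY against Untreated (limma adjusted p = 0.215). It was -0.62 in NNK+SECY against Untreated and -0.62 against NNK (limma adjusted p = 0.252 and 0.234). Unlike Ccl19, nearly all of it lay in Cy5: -0.75, -0.70 and -0.61 in the same order, against -0.05, -0.08 and 0.01 in Cy3. Without NNK+SECY 3 the difference from NNK was -0.81 and passed (limma adjusted p = 0.0493). Without SECY 2 the difference from Untreated was -0.51. On Cy5 alone the SECY difference passed (-0.75, limma adjusted p = 0.0304), in a setting where 21.7% of all genes passed. The array's annotation puts the brighter probe in transcript variant 2 of Cxcl12 and the dimmer in variant 1, 6753 bases away. The dimmer probe gave -0.23, -0.14 and -0.01, so the probes differ most in NNK+SECY against NNK lung. On the dimmer probe the SECY arrays, at -0.44 to -0.24, also lay below the Untreated arrays, at -0.21 to 0.09. Its NNK arrays, at -0.43 to -0.1, overlapped with the SECY arrays.

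Markers of the cells that make these ligands were measured beside them. Of 8 listed genes of lymphoid stroma and lymphatic vessels 7 were tested, and none passed in any comparison. Their summed Cy5 signal was 1310 to 2390 in Untreated, 1350 to 1670 in NNK, 1540 to 2930 in SECY and 1770 to 2630 in NNK+SECY lung, so these sums were not lower in the fed groups. Lyve1, a lymphatic marker, gave 0.86 in NNK+SECY against NNK lung (limma adjusted p = 0.329). It was the highest of the list, whose median there was 0.08, with 2 of 7 below 0 and Flt4 the lowest at -0.16. Within Untreated lung Lyve1 read from -0.764 to 0.655. All 9 fibroblast and smooth muscle markers were tested and none passed, with sums of 24100 to 27300, 24400 to 27200, 19700 to 29500 and 21600 to 24400. All 8 endothelial markers were tested and none passed, with sums of 22500 to 25100, 22100 to 24500, 20000 to 24800 and 21500 to 23700. Of T and NK cell markers 18 of 20 were tested. Cd3e, part of the T cell receptor complex, rose by 0.44 with NNK (limma adjusted p = 0.0195) and fell by 0.36 in NNK+SECY against NNK lung (limma adjusted p = 0.0203). Summed over these 18 genes, Cy5 signal was 2160 to 2690 in Untreated, 2560 to 2750 in NNK, 2160 to 2700 in SECY and 2420 to 2560 in NNK+SECY lung. The list's median was 0.07 with NNK and -0.04 in NNK+SECY against NNK, where 13 of 18 lay below 0, so Cd3e moved further than the list. All 9 dendritic cell markers were tested and none passed. In NNK+SECY against NNK lung all 9 lay below 0, with a median of -0.09 beside -0.002 over all genes. Their summed Cy5 signal was 1250 to 1370 in Untreated, 1340 to 1380 in NNK, 1220 to 1350 in SECY and 1230 to 1310 in NNK+SECY lung, lower on every NNK+SECY array than on any NNK array. The fall was not particular to dendritic markers. In the same comparison all 11 tested neutrophil markers lay below 0 (median -0.10), as did 6 of 6 mesothelial (-0.14) and 5 of 5 cardiac muscle markers (-0.18). The fibroblast and smooth muscle list had 7 of 9 below 0 and a median of -0.19. Medians above 0 were found for skeletal muscle (0.39), adipose (0.14), lymphoid stroma and lymphatic (0.08) and alveolar macrophage lists (0.03). The part of dendritic and T cells in the Ccl19 and Ccl22 values was not tested.

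The other CC ligands differed little. In NNK+SECY against NNK lung 14 of 17 CC ligands lay below 0 with a median of -0.04, beside -0.002 over all genes, and Ccl19 alone passed. Ccl22, a ligand of Ccr4 made by dendritic cells and macrophages, read -0.01, 0.31, 0.07 and -0.02 in NNK lung and -0.14, -0.11, -0.08 and -0.06 in NNK+SECY lung. The groups did not overlap, NNK 2 stood high, and the difference of -0.19 (SE 0.06) did not pass (limma adjusted p = 0.214). It was -0.11 in SECY and -0.12 in NNK+SECY against Untreated lung, again without overlap. Ccl17, the other Ccr4 ligand and its neighbour on the chromosome, gave -0.08 and -0.05 in those comparisons with overlapping groups. Ccl3, a ligand of inflammation, gave -0.15 in NNK+SECY against NNK lung (limma adjusted p = 0.334). Ccl21c, a Ccr7 ligand like Ccl19, gave -0.14 in the same comparison (limma adjusted p = 0.348) and has near-identical copies that the probe may not tell apart.

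Ccl9, a myeloid chemokine, was the CC ligand whose groups separated with NNK alone. Its Untreated arrays read 0.17, 0.04, 0.01 and 0.05 and its NNK arrays -0.01, -0.07, -0.10 and -0.22. All 4 NNK arrays were lower, by -0.17 on average, which did not pass (limma adjusted p = 0.852). Ccl2, the Ccr2 ligand that draws monocytes, gave -0.06 with NNK, -0.04 with selenocystine and -0.10 with both, with overlapping groups. Ccl8, another monocyte ligand, gave 0.21 with NNK and 0.24 with both against Untreated, and did not pass. Ccl5, which attracts T cells, read -0.05, -0.67, 0.07 and -0.56 in SECY lung and -0.38, 0.30, -0.46 and -0.06 in NNK+SECY lung. On its second probe SECY 2 and SECY 4 were again the lower SECY arrays, and NNK+SECY 2 and NNK+SECY 4 the higher NNK+SECY arrays. The order within these differed in part. Ccl11, an eotaxin, gave -0.12 with selenocystine and Ccl20, the Ccr6 ligand, 0.11, and neither passed. Ccl6, a macrophage chemokine, had no value on NNK 3 and 4 or on any SECY array, where its spots were marked as outliers. With those spots kept its SECY arrays read -0.21, -0.48, -0.72 and -0.39 and gave -0.16 (SE 0.10) against Untreated (limma adjusted p = 0.768).

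Among the CXC ligands, 8 of 9 lay below 0 with selenocystine alone, with a median of -0.13 beside -0.003 over all genes, and none passed. Cxcl14, an epithelial chemokine, read 0.04, 0.07, 0.10 and 0.29 in Untreated lung and -0.32, -0.40, 0.02 and -0.07 in SECY lung. These did not overlap, and the difference of -0.32 (SE 0.11) did not pass (limma adjusted p = 0.356). In NNK+SECY lung Cxcl14 read -0.27, -0.02, 0.10 and -0.29, which overlapped with Untreated. Ppbp, a platelet chemokine, gave -0.37 with selenocystine alone (limma adjusted p = 0.641), and Pf4, the other platelet chemokine, -0.17. Cxcl15, which airway epithelium makes to attract neutrophils, gave -0.13 and Cxcl1, a Cxcr2 ligand, -0.06. Cxcl10, induced by interferon, gave 0.07 with NNK, 0.08 with selenocystine and 0.05 with both.

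Cxcl16 is the ligand of Cxcr6 that also takes up oxidized lipoprotein at the cell surface. On its brighter probe the log2 ratio was lower on average in injected than in uninjected mice, short of the threshold. Untreated arrays read -0.07, 0.06, 0.19 and 0.07, NNK arrays -0.17, -0.02, -0.09 and -0.24, SECY arrays 0.02, -0.24, 0.16 and -0.06, and NNK+SECY arrays -0.25, -0.30, -0.18 and -0.12. NNK arrays were lower than the Untreated array of the same slide on 4 of 4 slides, by -0.31 to -0.08, and NNK+SECY arrays lower than the SECY array on 4 of 4, by -0.34 to -0.05. Ccl9 and Il1r1 were also lower on 4 of 4 with NNK, and Il17d, Ccl12, Il27 and Cxcl10 in fed mice. Others, such as Il1f8 and Il15 with NNK, were higher on 4 of 4. The share of all genes was not counted, and the arrays of each slide pair also differed in scan day. The Cxcl16 differences were -0.19 with NNK and -0.18 with NNK under selenocystine, and neither passed (limma adjusted p = 0.861 and 0.791). The second probe gave 0.01 and -0.04 in these comparisons and did not show it. On the brighter probe mean log2 Cy5 was 9 in Untreated and 8.98 in NNK lung, while Cy3 was 8.94 and 9.11. The difference with NNK thus lay mostly in the shared reference. In SECY and NNK+SECY lung Cy5 was 8.98 and 8.83, and Cy3 was 9.01 and 9.04. Against Untreated, NNK+SECY gave -0.28 (SE 0.08, limma adjusted p = 0.116), and the second probe -0.10. It passed with median centring in place of loess (-0.36, limma adjusted p = 0.0227), with array weights (-0.29, 0.0247) and without SECY 3 (-0.28, 0.0497). Cxcl13, which builds B cell follicles, gave -0.28 with NNK (limma adjusted p = 1) and 0.29 in NNK+SECY against NNK (limma adjusted p = 0.697), with a spread of 0.32 within groups.

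The 9 tested chemokines listed as made at rest were drawn up with earlier results known. They were Ccl19, Ccl20, Ccl21c, Ccl25, Ccl27a, Cxcl12, Cxcl13, Cxcl14 and Cxcl16. In SECY against Untreated 7 of 9 lay below 0, against 51.9% of all genes, with a median of -0.09 beside -0.003. Ccl20 was the highest, at 0.11. None of the 9 was called there, against 0.278% of all genes. In NNK+SECY against NNK 8 of 9 lay below 0, against 51.1%, with a median of -0.10 beside -0.002. Ccl19 alone was called there, against 1.75% of all genes. Of the 6 tested monocyte and inflammatory CC ligands 3 and 4 lay below 0 in these comparisons. Their medians were -0.01 and -0.03, and none passed. Medians near those of the 9 were also found in other sets. The 4 eotaxins and Th2 ligands gave -0.09 and -0.08, with 3 and 4 below 0. The 6 tested IL-1 family members gave -0.09 and -0.11, with 4 below 0 in each. The 4 tested gamma-chain cytokines gave 0.02 and 0, and the 2 of IL-10 type 0.01 and 0.03. No set test was run.

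**Figure D4:**
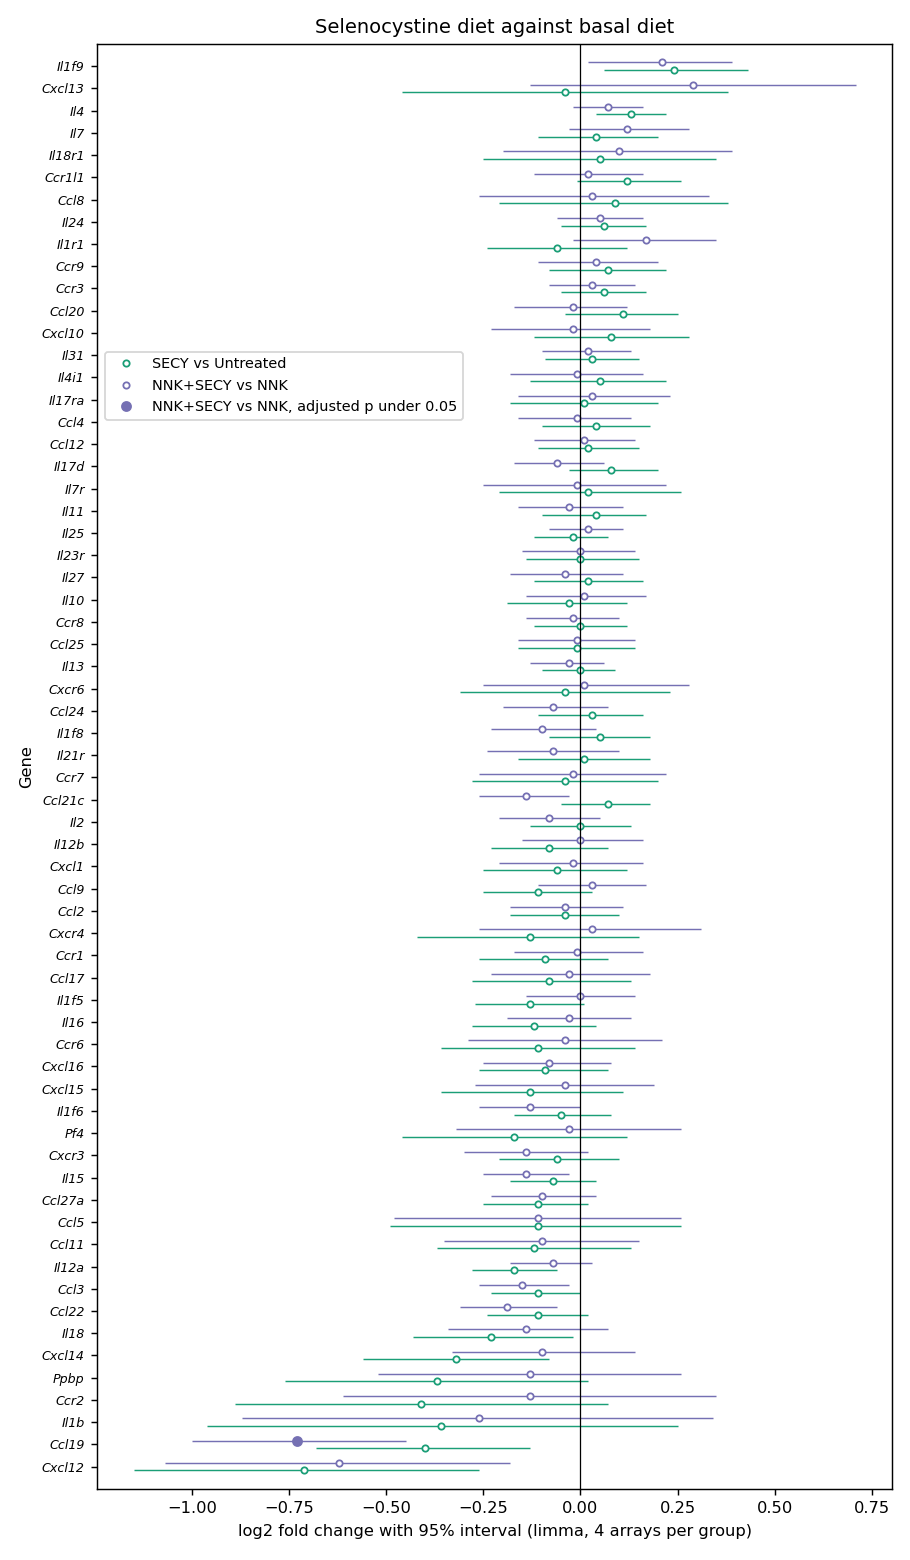
Log2 fold change with its 95% interval of 64 members for SECY against Untreated and for NNK+SECY against NNK lung, 4 arrays per group, ordered by their mean. Ccl19 is the filled point, the only one with an adjusted p under 0.05, and Cxcl12 lies as low with a wider interval.

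No chemokine receptor passed in any comparison. The 12 tested guide leukocytes along the ligands above, and their medians were -0.02 with NNK, -0.04 with selenocystine, -0.01 with both and 0 in NNK+SECY against NNK. Ccr2, the receptor of Ccl2 on monocytes, read 0.51, -0.24, -0.70 and -0.16 in Untreated lung and -0.13, -0.53, -1 and -0.56 in SECY lung. The groups overlap, and the difference of -0.41 did not pass (limma adjusted p = 0.72). NNK+SECY lung read -0.05, -0.35, 0.11 and -0.33, which gave 0.40 against SECY lung (limma adjusted p = 0.842). Cxcr3, the receptor of Cxcl10 on T cells, read 0.32, 0.10, 0.14 and 0.16 in NNK lung and 0.01, 0.09, 0.01 and 0.05 in NNK+SECY lung, without overlap. Its difference of -0.14 did not pass (limma adjusted p = 0.57). Among T and NK cell markers the median there was -0.04. The receptors of the low ligands, Ccr7 and Cxcr4, gave -0.02 and 0.03 in NNK+SECY against NNK lung, with overlapping groups. Cxcr6, the receptor of Cxcl16, gave 0.01 there.

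No interleukin passed in any comparison, and the medians of the 21 tested were 0.01 with NNK, 0 with selenocystine, -0.02 with both and -0.03 in NNK+SECY against NNK. Within the IL-1 family, Il18, which drives interferon-gamma from T and NK cells, read 0.12, -0.05, -0.34 and -0.07 in Untreated lung and -0.26, -0.29, -0.26 and -0.46 in NNK+SECY lung. It gave -0.23 in both SECY and NNK+SECY against Untreated, and neither passed (limma adjusted p = 0.528 and 0.444). Il1b, the main secreted IL-1 of myeloid cells, gave -0.36 with selenocystine (limma adjusted p = 0.852) and had the widest spread of the members, an SD within groups of 0.47. Il1f9, an IL-36 cytokine of epithelium, read 0.35, 0.30, 0.20 and 0.08 in SECY lung and 0.36, 0.26, 0.02 and 0.09 in NNK+SECY lung, against -0.02, 0.11, -0.11 and -0.02 in Untreated lung. It was well above background on 1 of 4 Untreated, 0 of 4 NNK, 4 of 4 SECY and 2 of 4 NNK+SECY arrays, so its values in the other 3 groups are mostly readings near background and no fold is given. It did not pass against Untreated (limma adjusted p = 0.384 in SECY and 0.508 in NNK+SECY lung). Il1f8, another IL-36 cytokine, gave 0.15 with NNK (limma adjusted p = 0.881) and 0.41 on Cy5 alone, which passed (limma adjusted p = 0.00512), while the Cy3 signal of the shared reference at this probe moved by 0.25 between the same groups.

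Among the other interleukins, separation without a call was met by few. Il12a, a subunit of IL-12 and IL-35, read 0.02, -0.01, 0.13 and 0.09 in Untreated and -0.17, -0.16, -0.02 and -0.11 in SECY lung, a difference of -0.17 (limma adjusted p = 0.219). Il4, the cytokine of type 2 helper T cells, was not well above background on any Untreated array. Its mean log2 Cy5 was 6.05 in SECY and 6.10 in NNK+SECY lung, against 5.99 in Untreated lung. It passed the filter only through the fed groups, so these readings lie near background and no fold is given. On the log2 ratio neither fed group passed against Untreated lung (limma adjusted p = 0.298 and 0.252). Il15, which sustains NK and memory T cells, gave 0.09 with NNK and -0.14 in NNK+SECY against NNK lung (limma adjusted p = 0.304), where Cy5 alone gave 0.14. Its second probe had the opposite sign in both comparisons, at -0.11 and 0.07. Il17d gave -0.12 in NNK+SECY against SECY (limma adjusted p = 0.792), and its SECY arrays, at -0.06, -0.09, -0.02 and -0.08, lay above all NNK+SECY arrays, at -0.16, -0.16, -0.25 and -0.19. Il10, the main anti-inflammatory interleukin, gave -0.06, -0.03 and -0.05 with NNK, selenocystine and both. The 6 interleukin receptors tested had medians of -0.02, 0.01 and 0.02 in those comparisons, and none passed.

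Genes of the same pathways that the name pattern does not take were read from a list of 94 more genes, of which 86 were tested. None passed in any comparison, and the medians were 0.01 with NNK, 0 with selenocystine, -0.02 with both and -0.02 in NNK+SECY against NNK. Il33, an alarmin of lung epithelium and stroma, is not among these 86 and was read apart. Its arrays read 0.09, 0.08, -0.05 and 0.15 in Untreated lung and -0.32, -0.09, -0.29 and -0.28 in NNK+SECY lung. The groups did not overlap, and the difference of -0.31 did not pass (limma adjusted p = 0.11). It was -0.29 with selenocystine and -0.19 with NNK (limma adjusted p = 0.21 and 0.962). Csf1, the macrophage growth factor, gave -0.31 with selenocystine (limma adjusted p = 0.153), and Nfkb1, a subunit of NF-kappaB, -0.27 (limma adjusted p = 0.146). Ackr3, the scavenging receptor of Cxcl12, gave -0.27 with NNK.

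Some members varied widely between the mice of a group, and for several the same mouse number stood high in each group. Il1b and Ccr2 had SDs within groups of 0.47 and 0.37, at the 99.4 and 98.8 percentile of all genes tested, and Cxcl12 of 0.34. Il1b read 0.40, 0.37, -0.20 and -0.24 in Untreated, 0.50, 0.52, -0.35 and 0.19 in NNK, 0.57, -0.41, -0.74 and -0.52 in SECY and 0.48, -0.30, 0.25 and -0.62 in NNK+SECY lung. Array 1 was the highest in 3 groups and came after array 2 in NNK lung. Ccr7 read 0.25, 0.22, 0.17 and 0.18 on array 1 of the 4 groups and was the highest of its group in all 4. Of 65 members with values on every array, array 1 was the highest of its group in 3 or 4 groups for 19 (29.2%), against 10.1% of 20671 such genes. It was so in all 4 groups for 5 members (Ccr7, Ccr6, Il16, Il12b and Ccr3), against 1.64%. For arrays 2, 3 and 4 the counts were 4, 4 and 1 (6.15%, 6.15% and 1.54%, against 5.02%, 9.46% and 3.44%). The one member highest on array 2 in all 4 groups was Ccl17. S100a8, a neutrophil gene, read 0.58, 0.46, 0.23 and 0.38 on array 1 of the groups, the highest of each. S100a9 was also highest there among the arrays with a value. Cxcr2, another neutrophil marker, was highest on array 1 in SECY and NNK+SECY lung only. It read 0.043 on Untreated 1 and 0.045 on NNK 1, below array 2 of those groups (0.156 and 0.117). The other neutrophil markers are not given by array number. Summed over 11 tested of 14 neutrophil markers, Cy5 signal ran from 2650 to 4530 in Untreated, 2980 to 4870 in NNK, 1550 to 4450 in SECY and 2340 to 4510 in NNK+SECY lung. Arrays with number 1 shared a slide only within a pair of groups, the labels name no litter or day for the numbers, and the part of neutrophils in these values was not tested.

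**Figure D5:**
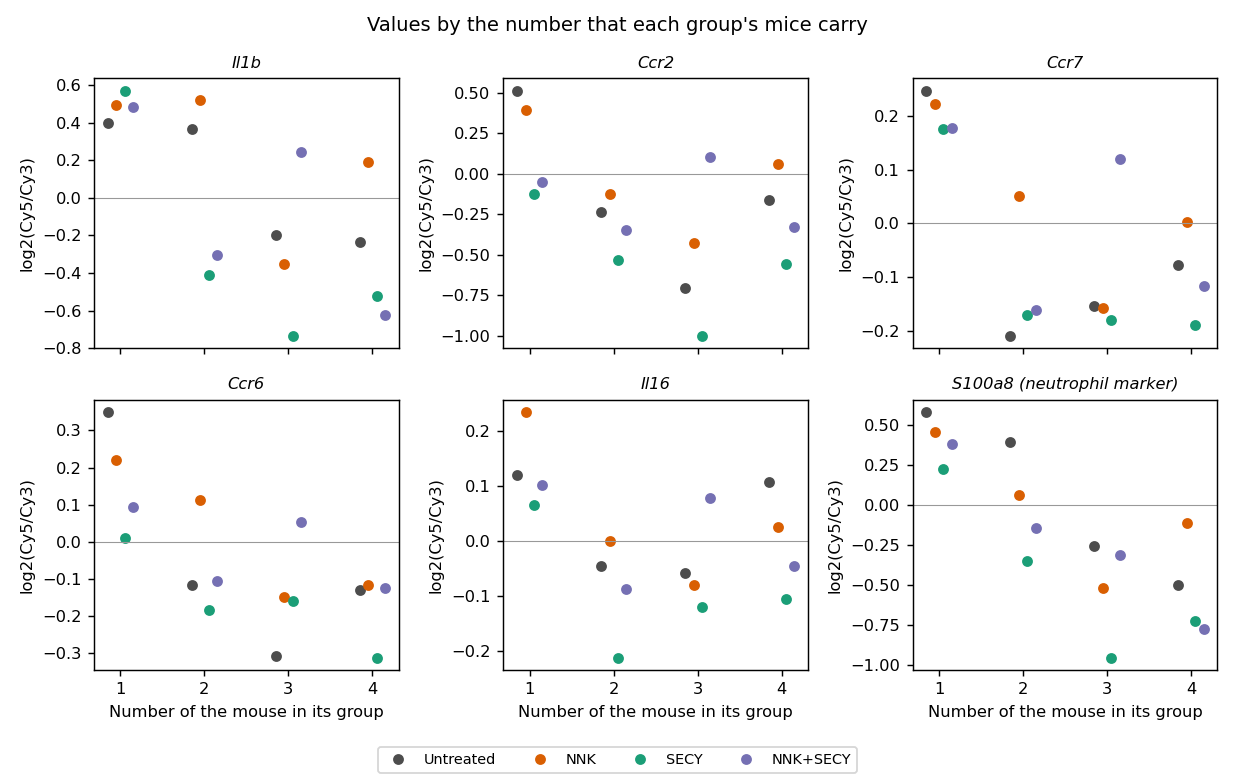
Log2(Cy5/Cy3) of 5 members and of the neutrophil gene S100a8 against the number (1 to 4) that a mouse carries in its group, with 1 point per array coloured by group. Mouse 1 is the highest of its group in all 4 groups for Ccr7, Ccr6, Il16 and S100a8.

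Some members lie side by side in the genome, and none of the neighbours given here passed in any comparison. The 4 genes Ccl2, Ccl11, Ccl12 and Ccl8, which are neighbours, had medians of -0.01 with NNK, -0.01 with selenocystine and -0.07 with both. The 5 genes Ccl5, Ccl9, Ccl6, Ccl3 and Ccl4 had medians of 0, -0.11 and -0.14. The 4 CXC genes Ppbp, Pf4, Cxcl15 and Cxcl1 had 0.01, -0.15 and -0.02. Order along the chromosome was taken from a RefSeq gene table of GRCm38.p6.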

How the data were processed

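RNA of 16 lungs was measured on 16 arrays. Per the file headers, the authors used Feature Extraction 8.1.1.1. Each deposited file gives the intensity of every spot in both colours and a processed log10 ratio of red over green, and the authors' deposited value table holds the same ratio as log2 values (equal within 0.005, each column's median 0). Mean intensities were corrected with limma's normexp (offset 50) and normalized by loess within arrays, with control spots and spots marked as outliers at weight 0 (R 4.3.3, limma 3.58.1, data.table at 1.17.8). A limma model with a mean per group was fitted to the 21261 genes with a passing probe, with Benjamini-Hochberg adjustment and a threshold of 0.05. Of 41174 probes, 22072 were named by accession, 6280 by symbol, 4226 by synonym and 8596 by the file. Cy5 alone was taken after Aquantile scaling. Read depth has no meaning for arrays, and 4 arrays per group limit the precision.

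The members and lists were chosen with earlier results of these data known. Named members are those called, the 4 with the smallest p per comparison, those whose groups do not overlap, those that passed in fewer than 4 groups and a set list of chemokines and interleukins; the motif patterns, the genes of the array-number comparison and the marker genes singled out were chosen after their values were seen. In simulated data with 200 changed genes among 20671, for NNK+SECY against NNK, 89% of changes of 0.5 and 97% of changes of 1 (log2) were recovered, and 8 unchanged genes were called. These shares are not given apart for members. Members such as Cxcl12, Ccr2 and Il1b vary more within groups (SD 0.34, 0.37 and 0.47) than the median gene (0.095), so the shares do not give their recovery. Alternatives covered the signal, normalization, background, filter, outlier marks, probe choice, slide, replicate block, arrays fitted, array weights, a minimum fold and leaving out each array. The values of 1 member are not reported here.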

Additional observations from a re-analysis of the deposited data

Results flagged for a closer look

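In 5 of 138 groups of 4 arrays examined over 35 named members, 1 array lay far from the other 3, by a gap that passed Dixon's test at the 95% level. Chance alone marks about 1 in 20 groups. Cxcl12 read -1.29 in SECY 2, where the other SECY arrays lay between -0.54 and -0.51. Il17d read -0.34 in Untreated 2, where the others lay between -0.09 and -0.06. Il1r1, the signalling receptor of IL-1, read 0.18 in Untreated 1 (others -0.12 to -0.07) and 0.05 in NNK 1 (others -0.26 to -0.21). Ccr7 read 0.17 in SECY 1, where the others lay between -0.19 and -0.17. Of these 5 values, 3 were high readings of array 1.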

How the results depend on the processing

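Over 24 pairs of member and comparison and all alternatives, 694 of 721 values kept their direction and side of the threshold, 13 passed that had not, 13 no longer passed and 1 reversed: Il15 in NNK+SECY against NNK, at 0.14 on Cy5 alone (limma adjusted p = 0.137). Members called changed as follows. With NNK alone, Cy5 alone gave 1 (0 otherwise). With selenocystine alone, the processed signals and the value table each gave 1 (Il4, higher, which is not above background in Untreated lung), no filter 1 (Il3, lower), Cy5 alone 12, and leaving out single arrays 0 to 1. With both against Untreated, median centring, no filter and array weights each gave 2, a 1.5-fold minimum 0, Cy5 alone 7, and single arrays left out 0 to 2; with processed signals or the value table, the member called was Il4 and not Ccl19. In NNK+SECY against NNK, no filter gave 2, a 1.5-fold minimum 0, Cy5 alone 5, and single arrays left out 1 to 2. Over all genes Cy5 alone called 462, 4620, 3302, 1634 and 29 in the 5 pairs, against 68, 59, 339, 371 and 2. With NNK alone all genes called were also 22 with processed signals, 21 with the value table, 40 with median centring and 42 with only the arrays compared. With selenocystine alone they were 226 with array weights and 29 with only the arrays compared, and with both against Untreated 512 with array weights. Leaving out single arrays gave 18 (without NNK 3) to 131 (without NNK 1) genes with NNK alone, 44 (without Untreated 4) to 232 (without SECY 1, with 178 lower) with selenocystine alone, 164 (without NNK+SECY 4) to 428 (without SECY 3) with both against Untreated, 279 to 496 in NNK+SECY against NNK and 0 to 7 (without SECY 2) against SECY. The 1.5-fold minimum left 0, 5, 5, 1 and 0. Median centring moved the split of higher to lower genes from 45 and 14 to 41 and 30 with selenocystine alone and from 114 and 225 to 83 and 294 with both. The replicate block called 0, 0, 1, 1, 0 and 0 members in the 6 comparisons, the same counts as without it, and 64, 108, 356, 399, 3 and 2 genes in all. NNK+SECY against SECY called 0 genes with processed signals, the value table, the mean over probes, slide as a fixed block or only the arrays compared. The numbers were not taken to pair the samples, since same-number correlations ran from -0.12 to 0.50 and not all were over 0.1. Those of number 1 were 0.21 to 0.50 in the 5 pairs of groups, each above its highest correlation with another number, as a hint from the data and not the design. The cause of each change was not tested. Signals near background limit the 13 members that passed the filter only through the fed groups.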
